A study of Arabidopsis thaliana with 11 samples.

Results

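The 10 sulfate transporter genes of *Arabidopsis* described here belong to the SULTR family, and they were taken as a list of loci from the family's groups 1 to 4. The arrays carried 14 probes for these loci, and all 14 passed the filter on dim probes. They stood among 25433 loci with a probe, of which 21923 were tested. The family was chosen by the measured signal of WT+PSY1 against WT on these same arrays, in which 1 of the 10 genes stood out. The comparison of PSY1-treated with untreated wild type is therefore given for all 10 genes as a description, with no test.

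Plants take up sulfur as sulfate, which SULTR proteins move with protons across membranes. Group 1 holds the high-affinity carriers of the root surface and the phloem, group 2 the low-affinity carriers of the vascular tissue, group 3 carriers studied mostly at the plastid envelope, and group 4 the carriers that release sulfate from the vacuole. In the plastid, sulfate is activated by ATP sulfurylase and reduced for cysteine, or is turned into the sulfate donor that sulfotransferases use. One of these, tyrosylprotein sulfotransferase, adds the sulfate group that the secreted peptide PSY1 carries.

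Transcripts were measured in whole Columbia seedlings grown in liquid medium under continuous light, on arrays read in one color. The groups were psy1r knockout seedlings treated with 10 nM PSY1 for 4 h (psy1r+PSY1, 2 arrays), untreated psy1r seedlings (3 arrays), wild type treated with the same dose for the same time (WT+PSY1, 3 arrays) and untreated wild type (WT, 3 arrays). PSY1R is a receptor kinase named as the receptor of PSY1, and the mutant is 1 knockout line. Replicate 2 of psy1r+PSY1 was not analysed here. Each value below is the log2 of the processed spot signal after every array was scaled to the same 75th percentile, and each difference is a difference of such values. No spot was saturated. A level is compared only between arrays for the same probe, never between genes. Because whole seedlings were ground, fewer cells that express a gene and less RNA per cell cannot be told apart.

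Arrays of a group were not equally far apart. Spots of one probe on the same array differed by a median of 0.064 to 0.13 (15 probes printed 5 times). Over those probes, WT replicates 1 and 2, psy1r replicates 1 and 2, and the 3 WT+PSY1 arrays differed between arrays by 0.043 to 0.074, while all other pairs within a group differed by 0.24 to 0.32. The alike arrays thus differed by no more than repeated spots, and they were counted as 1 sample each in every mean ± SD, which leaves 7 samples: 2 of psy1r+PSY1, 2 of psy1r, 1 of WT+PSY1 and 2 of WT. This departs from the study's methods, which give 3 biological replicates, and whether the alike arrays hold separate cultures is not known. The limma fit over all 11 arrays is given as the planned test, and its p-values rest in part on this small spread. With the alike arrays averaged, limma called 0 of all tested loci (0%) in each of the 4 comparisons, by an adjusted p below 0.05 and a difference of more than 2-fold. On psy1r+PSY1 replicate 3, all 12 measured seed storage and late embryo transcripts were at their highest. The log2 of their summed signal was 15.46 there, 9.20 on the other psy1r+PSY1 array, 9.97 to 11.06 in psy1r, 9.54 to 9.73 in WT+PSY1 and 9.07 to 11.24 in WT. In psy1r against WT, 5 of these 12 were higher without overlap (10.5% of all tested loci) and 0 were lower (12%). GEA6, for example, was at 8.19 to 8.62 in psy1r and 4.31 to 5.07 in WT. The part of seed material in the results was not tested. The PSY1R probe was at 3.11 and 5.91 in psy1r+PSY1, 4.06, 4.12 and 2.08 in psy1r, 9.15, 8.95 and 9.18 in WT+PSY1 and 9.42, 9.45 and 8.77 in WT, and it was well above background on 1 of 2 psy1r+PSY1 arrays and 1 of 3 psy1r arrays.

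**Figure D1:**
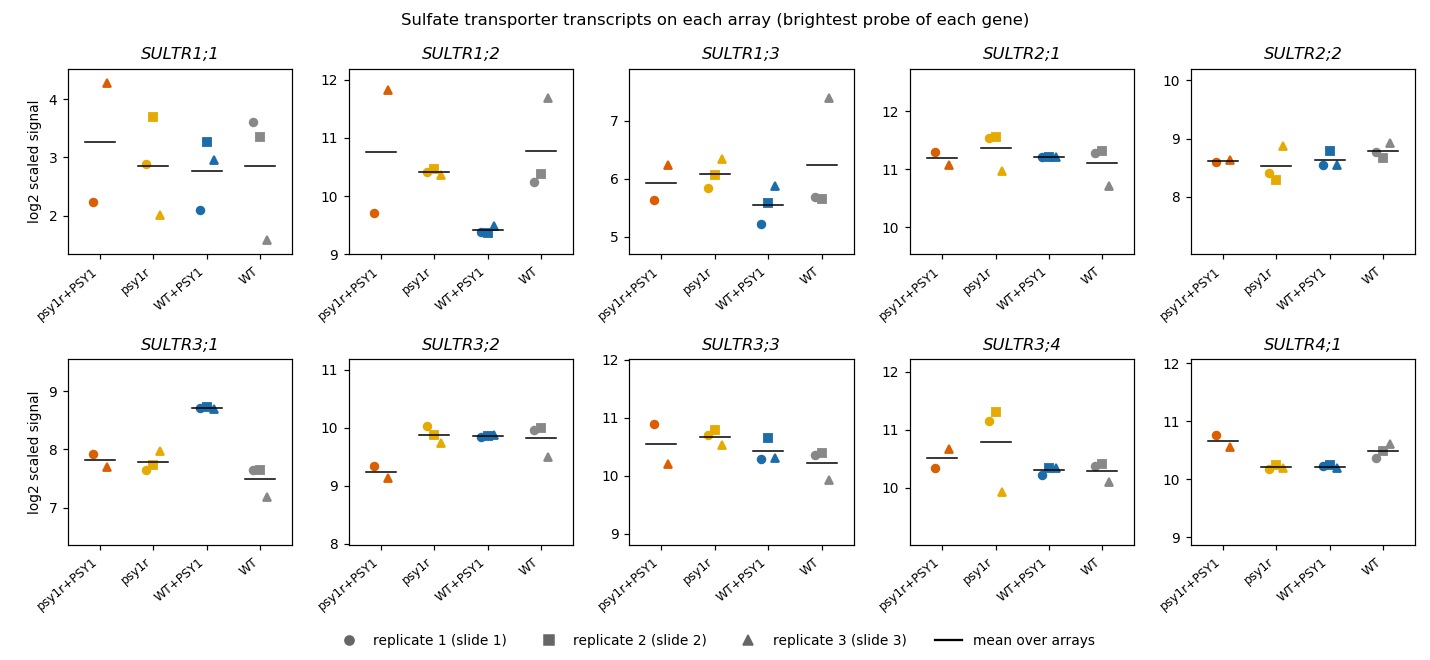
Scaled log2 signal of the brighter probe of each sulfate transporter gene (vertical axes, each spanning its own range) on the 11 arrays, by group from psy1r+PSY1 to WT; symbols mark replicate and slide, bars the mean over arrays. The WT+PSY1 arrays of SULTR3;1 sit at 8.69 to 8.74, above all other arrays, which reach at most 7.97.

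No tested member was called in any of the 3 tested comparisons, with p-values adjusted by Benjamini-Hochberg over all tested probes. AT3G51895, the gene that stood out in WT+PSY1, was left out of 2 of them, because they share the arrays by which it was chosen. In psy1r+PSY1 against WT+PSY1, 0 of 9 members were called, against 1.09% of all tested loci, and 3 of 9 had an unadjusted p below 0.05, against 21.6% of loci. For psy1r+PSY1 against psy1r, 0 of 10 were called, against 0.00912% of loci, and 2 of 10 passed the unadjusted limit, against 5.42%. In psy1r against WT, 0 of 9 were called, against 0.88% of loci, and 1 of 9 passed the unadjusted limit, against 17.5%. By adjusted p alone, without the fold limit, 0 members passed in each of the 3, against 1.97%, 0.0137% and 1.48% of loci in the same order. The methods' t-test gave 0 calls with the fold limit as well. In the fit of 7 samples, 0 members had an unadjusted p below 0.05 in each of the 3, against 3.12%, 1.47% and 3.72% of loci. Between WT+PSY1 and WT, the contrast by which the family was chosen, 1 of 10 members was past both limits, as higher, where 0.224% of loci were past them in either direction and 0.169% as higher (0.479% by adjusted p alone). That count is a description, and it was 0 with the slide as a block.

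The median difference of the 10 genes lay near that of all loci in each comparison. It was 0.16 in psy1r+PSY1 against WT+PSY1 (all loci, -0.0049), -0.05 in psy1r+PSY1 against psy1r (all loci, 0.01), 0.04 in psy1r against WT (all loci, -0.03) and -0.03 in WT+PSY1 against WT (all loci, -0.02). Positive differences numbered 6, 5, 6 and 5 of 10 in the same order.

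**Figure D2:**
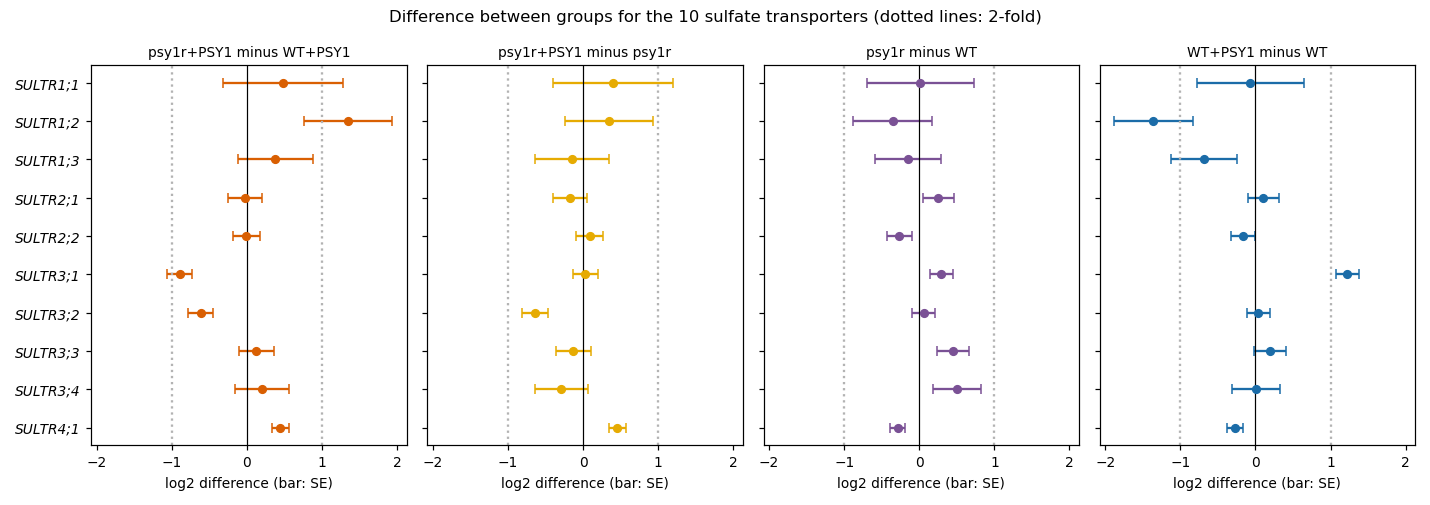
Log2 difference of each sulfate transporter gene (brighter probe) in the 4 comparisons, with bars of 1 SE from the limma fit of 11 arrays and dotted lines at 2-fold. The differences beyond the dotted lines are 1.35 in psy1r+PSY1 against WT+PSY1 and -1.36 in WT+PSY1 against WT, both of the root uptake gene AT1G78000, and 1.22 in WT+PSY1 against WT, of AT3G51895.

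Of the root uptake carriers, SULTR1;2 (AT1G78000, also SEL1) encodes the main high-affinity carrier through which roots take up sulfate, and its transcript is known to accumulate when sulfur is short. Its signal was 9.70 and 11.82 in psy1r+PSY1, 10.42, 10.46 and 10.37 in psy1r, 9.38, 9.37 and 9.48 in WT+PSY1 and 10.24, 10.38 and 11.68 in WT. The 3 WT+PSY1 arrays were the lowest of all 11, and the highest values came from the replicate 3 arrays of psy1r+PSY1 and WT. Counted by sample, the mean was 10.76 ± 1.5 in psy1r+PSY1, 10.40 ± 0.05 in psy1r and 10.9985 ± 0.97 in WT (SD, n = 2 each), so these 3 groups did not differ beyond their spread.

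The difference of SEL1 between psy1r+PSY1 and WT+PSY1 was 1.35 ± 0.58 (SE), or 2.55-fold, with an adjusted p of 0.239 in limma over 11 arrays and 0.9997 over 7 samples. It was 0.32 within slide 1 and 2.34 within slide 3. Without psy1r+PSY1 replicate 3, the array with the seed transcripts, the difference was 0.29, and without replicate 1 it was 2.41 and was called. WT+PSY1 stood below WT by 0.87, 1.01 and 2.20 within the 3 slides. Between psy1r+PSY1 and psy1r the difference was 0.35 ± 0.58 (adjusted p = 0.9999), at -0.72 within slide 1 and 1.45 within slide 3.

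A dimmer probe for SEL1 was well above background only on the 3 WT arrays, at 7.38, 3.56 and 4.82. It was at 2.25 and 4.18 in psy1r+PSY1, 2.46, 3.08 and 2.05 in psy1r, and 2.08, 2.26 and 2.13 in WT+PSY1. It passed the filter on dim probes only through WT, where replicate 1 stood well above the other arrays, so no fold or test is given for it. The probes disagreed for psy1r, whose arrays overlapped those of WT on the brighter probe and lay below all of them, and not well above background, on the dimmer one.

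SULTR1;1 (AT4G08620) encodes the second high-affinity carrier of the root surface, whose transcript is scarce in plants with ample sulfate. It was well above background on only 1 array of each group, with signals of 2.24 and 4.28 in psy1r+PSY1, 2.005 to 3.69 in psy1r, 2.102 to 3.27 in WT+PSY1 and 1.59 to 3.605 in WT. The groups overlapped in all 4 comparisons, and no fold is given at this level. Root tissue was present in every sample, since all 6 root markers were well above background on all 11 arrays.

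The log2 of the summed signal of the root markers was 17.17 and 17.39 in psy1r+PSY1, 16.84 to 17.22 in psy1r, 16.81 to 16.92 in WT+PSY1 and 16.76 to 17.08 in WT. PYK10, by far the brightest of them at 16.7 to 17.3, set most of this sum. The mean log2 signal of the 6 markers was 10.41 and 10.45 in psy1r+PSY1 and 9.28 to 10.97 in psy1r. It was 10.52 to 10.61 in WT+PSY1 and 10.17 to 11.09 in WT. All markers but PYK10 were at their lowest on psy1r replicate 3. The root hair markers COBL9 and EXPA7 spread most widely. COBL9 was at 7.39 and 7.35 in psy1r+PSY1, 5.69 to 8.34 in psy1r, 8.36 to 8.51 in WT+PSY1 and 7.19 to 9.18 in WT. Whether the share of root tissue or root hairs contributed to the values of the uptake carriers was not tested.

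SULTR1;3 (AT1G22150), the high-affinity carrier of phloem companion cells, was at 5.64 and 6.23 in psy1r+PSY1, 5.85, 6.07 and 6.34 in psy1r, 5.21, 5.58 and 5.87 in WT+PSY1 and 5.68, 5.65 and 7.38 in WT. WT replicate 3 was the highest array. The groups overlapped in every comparison, and the differences were 0.38 ± 0.49 in psy1r+PSY1 against WT+PSY1, -0.15 ± 0.49 in psy1r+PSY1 against psy1r, -0.15 ± 0.44 in psy1r against WT and -0.68 ± 0.44 in WT+PSY1 against WT (SE). The lowest adjusted p of the 3 tested comparisons was 0.706.

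For the group 2 carriers, which load and unload the vascular tissue, the mean levels differed little in the comparisons made. SULTR2;1 (AT5G10180, also AST68), expressed around the xylem and phloem and tied to movement of sulfate between root and shoot, was at 11.29 and 11.08 in psy1r+PSY1, 11.54, 11.56 and 10.97 in psy1r, 11.20, 11.21 and 11.21 in WT+PSY1 and 11.28, 11.32 and 10.71 in WT. Its groups overlapped in all 4 comparisons. The largest tested difference was 0.26 ± 0.21 in psy1r against WT (adjusted p = 0.585), and it was 0.24 to 0.27 within each of the 3 slides.

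SULTR2;2 (AT1G77990, which RefSeq lists as AST56) was at 8.59 and 8.64 in psy1r+PSY1, 8.41, 8.28 and 8.87 in psy1r, 8.54, 8.78 and 8.55 in WT+PSY1 and 8.77, 8.67 and 8.92 in WT. Here psy1r was 0.26 ± 0.16 below WT (adjusted p = 0.457), with overlapping groups. The differences of psy1r+PSY1 were -0.0086 ± 0.18 against WT+PSY1 and 0.09 ± 0.18 against psy1r. All 4 phloem and xylem markers were well above background on every array. The log2 of their summed signal was 12.86 and 12.99 in psy1r+PSY1, 12.55 to 13.19 in psy1r, 13.27 to 13.37 in WT+PSY1 and 12.91 to 13.61 in WT.

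Among the group 3 carriers, SULTR3;1 (AT3G51895, also AST12) encodes a carrier shown to take sulfate into the chloroplast. It is the gene that came onto the list through its response to PSY1 in wild type. Its brighter probe was at 7.93 and 7.71 in psy1r+PSY1, 7.66, 7.74 and 7.97 in psy1r, 8.71, 8.74 and 8.69 in WT+PSY1 and 7.65, 7.64 and 7.18 in WT. WT+PSY1 stood apart from the other 3 groups. By sample, psy1r+PSY1 averaged 7.82 ± 0.16, psy1r 7.83 ± 0.19 and WT 7.41 ± 0.33 (SD, n = 2 each), and WT+PSY1, counted as 1 sample, was at 8.71.

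In order, WT+PSY1 came first, and psy1r and psy1r+PSY1 were level by sample. WT came last, with psy1r 0.42 ± 0.27 (SE) above it over 7 samples, which is given with no test. The WT arrays lay lowest, but the highest of them, at 7.65, was level with the lowest psy1r array, at 7.66. Within the 3 slides psy1r was above WT by 0.0031, 0.10 and 0.79. WT+PSY1 was 1.22 ± 0.15 (SE) above WT, or 2.33-fold, at 1.06, 1.09 and 1.51 within the 3 slides. In the mutant, psy1r+PSY1 was 0.03 ± 0.17 above psy1r (95% interval -0.36 to 0.42, adjusted p = 0.9999), at 0.27 within slide 1 and -0.26 within slide 3, and -0.14 with quantile normalization in the manner of RMA. This is the only comparison of AST12 that shares no array with the one through which the gene was chosen. The PSY1 difference in psy1r was lower than that in WT by 1.19 ± 0.23 on the log2 scale, at -0.78 within slide 1 and -1.77 within slide 3, which is given with no test.

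Set against the same WT+PSY1 arrays, psy1r+PSY1 was -0.90 ± 0.17, at -0.78 and -0.99 within slides 1 and 3, and psy1r was 0.30 ± 0.15 from WT. Both are given with no test, since they share the arrays through which the gene was chosen. Under quantile normalization in the manner of RMA the first of these was -1.10.

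The dimmer probe for AST12 gave a smaller difference of the same sign in wild type. It was at 7.47 and 7.45 in psy1r+PSY1, 7.68, 7.68 and 7.63 in psy1r, 7.64, 7.70 and 7.71 in WT+PSY1 and 7.48, 7.43 and 7.08 in WT. WT+PSY1 was 0.36 ± 0.12 above WT, without overlap, while psy1r+PSY1 was 0.20 ± 0.13 below psy1r (adjusted p = 0.9999), also without overlap. On this probe psy1r lay at the level of WT+PSY1, which it did not on the brighter one. The pair therefore disagreed in the size of the PSY1 difference in wild type, and the mean over both probes was 0.79. The files name the transcript of each probe but not its place in the transcript.

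**Figure D3:**
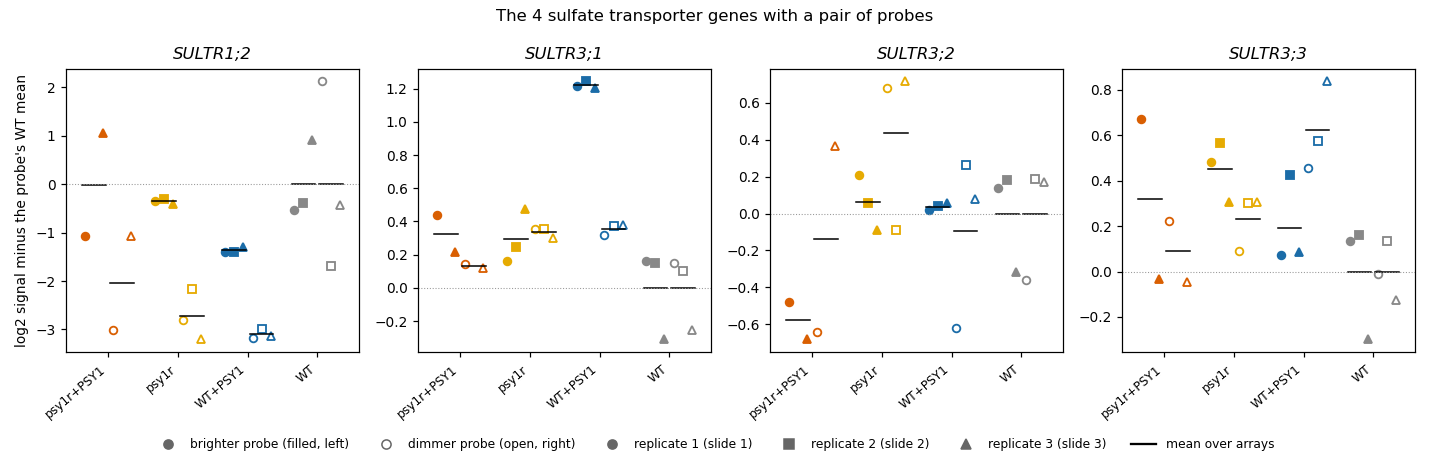
Log2 signal of each probe minus its own WT mean (vertical axes, each spanning its own range) for the 4 genes with a pair of probes, with the brighter probe filled and the dimmer one open, by group from psy1r+PSY1 to WT. For SULTR3;1 the brighter probe is 1.22 above WT in WT+PSY1 and the dimmer one 0.36.

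Over the 11 arrays, the loci whose brightest probes followed AST12 most closely by Pearson correlation were AT5G44005 (0.99), EDL2 (AT5G39360, 0.99) and AT4G15080 (0.99). These correlations describe arrays of which several are alike, and carry no test. AT5G44005 was at 10.03 and 10.07 in psy1r+PSY1, 9.88 to 10.12 in psy1r, 10.77 to 10.79 in WT+PSY1 and 9.50 to 9.93 in WT. Its WT+PSY1 arrays were above all others, which follows from its choice by correlation with AST12. EDL2 was at 10.08 and 10.36 in psy1r+PSY1, 10.15 to 10.34 in psy1r, 10.92 to 10.94 in WT+PSY1 and 9.88 to 10.07 in WT.

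SULTR3;2 (AT4G02700), a related plastid carrier, was at 9.34 and 9.14 in psy1r+PSY1, 10.03, 9.87 and 9.73 in psy1r, 9.83, 9.86 and 9.87 in WT+PSY1 and 9.96, 10.00 and 9.50 in WT. Both psy1r+PSY1 arrays were below all 9 others. The mean by sample was 9.24 ± 0.14 in psy1r+PSY1, 9.84 ± 0.16 in psy1r and 9.74 ± 0.34 in WT (SD, n = 2 each). The difference of psy1r+PSY1 was -0.64 ± 0.17 against psy1r (1.56-fold, adjusted p = 0.486) and -0.62 ± 0.17 against WT+PSY1 (adjusted p = 0.0986), and with 7 samples the adjusted p was 0.9999 and 0.9997.

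Within slides 1 and 3 the difference against psy1r was -0.69 and -0.59, and that against WT+PSY1 was -0.50 and -0.74. In wild type, WT+PSY1 was 0.04 ± 0.15 from WT. A much dimmer probe for the gene was at 3.74 and 4.75 in psy1r+PSY1, 4.30 to 5.10 in psy1r, 3.77 to 4.65 in WT+PSY1 and 4.03 to 4.58 in WT, and its groups overlapped in all 4 comparisons.

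SULTR3;3 (AT1G23090, which RefSeq lists as AST91) was at 10.89 and 10.19 in psy1r+PSY1, 10.705, 10.79 and 10.53 in psy1r, 10.30, 10.65 and 10.31 in WT+PSY1 and 10.36, 10.39 and 9.93 in WT. The psy1r arrays lay above the WT arrays, by 0.45 ± 0.21 (adjusted p = 0.331), at 0.35, 0.40 and 0.60 within the 3 slides. The other differences on this probe were 0.19 or less in size. Its dimmer probe was at 7.40 and 7.13 in psy1r+PSY1, 7.27, 7.48 and 7.48 in psy1r, 7.63, 7.75 and 8.02 in WT+PSY1 and 7.17, 7.31 and 7.05 in WT.

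On that dimmer probe of AST91 the WT+PSY1 arrays were the highest, 0.62 ± 0.14 above WT, and psy1r+PSY1 was -0.53 ± 0.16 against WT+PSY1 (adjusted p = 0.113) and -0.14 ± 0.16 against psy1r. The brighter probe did not show this order, so the pair disagreed about the response to PSY1.

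SULTR3;4 (AT3G15990), which is also known for the distribution of phosphorus within the shoot, was at 10.35 and 10.66 in psy1r+PSY1, 11.15, 11.31 and 9.93 in psy1r, 10.22, 10.34 and 10.35 in WT+PSY1 and 10.38, 10.41 and 10.09 in WT. In psy1r the 2 alike arrays were the highest of all and replicate 3 the lowest. The difference between psy1r and WT was 0.50 ± 0.32 (adjusted p = 0.477), and it was 0.76, 0.90 and -0.16 within the 3 slides. The psy1r+PSY1 arrays stood 0.20 ± 0.36 above WT+PSY1 (adjusted p = 0.791), a sign that turned to -0.05 with quantile normalization in the manner of RMA.

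SULTR4;1 (AT5G13550) encodes a carrier of the vacuolar membrane that releases stored sulfate. It was at 10.76 and 10.56 in psy1r+PSY1, 10.18, 10.24 and 10.19 in psy1r, 10.22, 10.24 and 10.18 in WT+PSY1 and 10.37, 10.49 and 10.60 in WT. The psy1r and WT+PSY1 arrays were level, and all arrays of psy1r+PSY1 and WT lay above them. The mean by sample was 10.66 ± 0.14 in psy1r+PSY1, 10.20 ± 0.01 in psy1r and 10.52 ± 0.12 in WT (SD, n = 2 each).

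For this gene psy1r+PSY1 was 0.46 ± 0.11 above psy1r (1.37-fold, adjusted p = 0.403) and 0.45 ± 0.11 above WT+PSY1 (adjusted p = 0.0802), and psy1r was -0.28 ± 0.10 from WT (adjusted p = 0.209). With 7 samples the adjusted p was 0.9997 or more in each. In wild type the PSY1 difference had the opposite sign, -0.27 ± 0.10. Within slides 1, 2 and 3 it was -0.15, -0.25 and -0.42 in WT, and in psy1r it was 0.59 and 0.37 within slides 1 and 3.

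The arrays of the groups compared did not overlap for some members. In psy1r+PSY1 against WT+PSY1, 3 of 10 members were higher and 2 lower without overlap, against 23.2% and 26.1% of all tested loci. Against psy1r the counts of psy1r+PSY1 were 1 higher and 1 lower, against 7.48% and 7.23%. In psy1r against WT they were 2 higher and 1 lower, against 10.5% and 12%, and in WT+PSY1 against WT 1 higher and 2 lower, against 22.9% and 24.2%. AT3G51895 is counted among the lower members of psy1r+PSY1 against WT+PSY1 and the higher members of psy1r against WT. It is also the only higher member of WT+PSY1 against WT. These comparisons share the arrays by which it was chosen, so the counts that hold it are a description.

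Other genes of sulfate transport and use were set beside the members. The vacuolar partner of the last gene, SULTR4;2 (AT3G12520), was at 10.58 and 10.58 in psy1r+PSY1, 10.37, 10.30 and 10.45 in psy1r, 9.84, 9.97 and 10.01 in WT+PSY1 and 10.37, 10.47 and 10.37 in WT. Its WT+PSY1 arrays were the lowest. The difference of 0.64 ± 0.10 between psy1r+PSY1 and WT+PSY1 had an adjusted p of 0.0279 over 11 arrays, 0.0668 with the slide as a block and 0.9997 over 7 samples, and stayed under 2-fold. SULTR3;5 (AT5G19600) was at 0.51 ± 0.17 in the same comparison (adjusted p = 0.156), and the molybdate carriers MOT1 and MOT2 of the same superfamily were at -0.29 ± 0.46 and 0.01 ± 0.24 (MOT2 was at -0.28 ± 0.21 in psy1r against WT).

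Of the 8 genes of sulfate activation and reduction, 0 were called in any comparison. Between psy1r+PSY1 and WT+PSY1, 7 of 8 had a positive difference, as did 49.5% of all tested loci, and the median of the 8 was 0.44. Without overlap, 6 were higher and 1 lower, against 23.2% and 26.1% of all tested loci. The lower one was APS2, at -0.43 ± 0.14. APR3, an adenosine phosphosulfate reductase, had the largest difference, 1.02 ± 0.25 (adjusted p = 0.0771). It was at 12.12 and 12.22 in psy1r+PSY1 and 12.03, 12.10 and 11.33 in psy1r. In wild type it was at 11.17, 11.20 and 11.09 in WT+PSY1 and 11.61, 11.54 and 12.135 in WT. The WT+PSY1 arrays, which count as 1 sample, were thus the lowest, at -0.61 ± 0.23 against WT. In psy1r+PSY1 against WT+PSY1, the ATP sulfurylases APS3, APS4 and APS1 were at 0.59 ± 0.15, 0.49 ± 0.18 and 0.47 ± 0.22. Against psy1r, 3 of the 8 differences of psy1r+PSY1 were positive.

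The 6 measured genes of 7 on the sulfation branch, which makes and spends the activated sulfate donor, gave 0 calls. Between psy1r+PSY1 and WT+PSY1 the kinases APK2 and APK1 were at 0.77 ± 0.29 (adjusted p = 0.192) and 0.69 ± 0.19 (adjusted p = 0.102), and the phosphatase SAL1 at 0.44 ± 0.18. APK4 was at -0.01 ± 0.54 there and at 0.39 ± 0.54 in psy1r+PSY1 against psy1r. TPST, the tyrosylprotein sulfotransferase, was at 7.98 and 8.40 in psy1r+PSY1, 8.26 to 8.38 in psy1r, 8.10 to 8.27 in WT+PSY1 and 8.27 to 8.33 in WT, and its groups overlapped throughout.

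Of the 10 genes of cysteine and glutathione synthesis, 0 were called. The serine acetyltransferase gene AT2G17640 (RefSeq SERAT3;1) was -0.94 ± 0.26 in psy1r+PSY1 against WT+PSY1 (adjusted p = 0.0968), and 2 others, SERAT2;1 and SERAT3;2, were at 0.75 ± 0.41 and 0.48 ± 0.29. The same WT+PSY1 arrays, which count as 1 sample, stood apart from WT without overlap. Against WT they were at 1.01 ± 0.23, -0.99 ± 0.37 and -0.93 ± 0.26 in the same order of genes. SERAT3;2 was at -0.71 ± 0.26 in psy1r against WT (adjusted p = 0.228). OASB, a cysteine synthase of the plastid, was at 0.11 ± 0.22 in psy1r+PSY1 against WT+PSY1 and at 0.36 ± 0.20 in psy1r against WT (adjusted p = 0.413).

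Of the 10 transcripts that mark or regulate the response to sulfur deficiency, 0 were called. Between psy1r+PSY1 and WT+PSY1, 10 of 10 differences were positive and 9 were higher without overlap (23.2% of loci), with a median of 0.69. Between WT+PSY1 and WT, 9 of 10 were negative and 6 were lower without overlap (24.2% of loci), with a median of -0.61. In psy1r against WT, 6 of 10 were negative, with a median of -0.44. The first and second of these comparisons hold the same WT+PSY1 arrays, which count as 1 sample, and in psy1r+PSY1 against psy1r, where they take no part, 7 of 10 were positive and 2 were higher without overlap (7.48% of loci).

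SDI1, a repressor of glucosinolate synthesis induced when sulfur is short, was at 10.10 and 11.14 in psy1r+PSY1, 10.68, 10.84 and 8.58 in psy1r, 9.46, 9.43 and 9.44 in WT+PSY1 and 11.24, 11.24 and 10.64 in WT. Its difference in psy1r+PSY1 against WT+PSY1 was 1.18 ± 0.62 (adjusted p = 0.329). LSU3, a small protein of the LSU family, was at 9.97 and 9.80 in psy1r+PSY1, 9.73, 9.75 and 7.75 in psy1r, 8.44, 8.60 and 8.29 in WT+PSY1 and 9.76, 9.50 and 10.29 in WT, a difference of 1.44 ± 0.54 against WT+PSY1 (adjusted p = 0.187). For both, psy1r replicate 3 was the lowest array, so psy1r did not keep apart from WT+PSY1.

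BGLU28, a thioglucosidase induced by sulfur shortage, was at 0.88 ± 0.41 in psy1r+PSY1 against psy1r and -0.90 ± 0.37 in psy1r against WT (adjusted p = 0.955 and 0.273). SHM7 had the largest difference on this list, 3.24 ± 2.31 in psy1r against WT, which rested on WT replicate 1 at 1.45, where the other WT arrays were at 11.66 and 11.72.

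**Figure D4:**
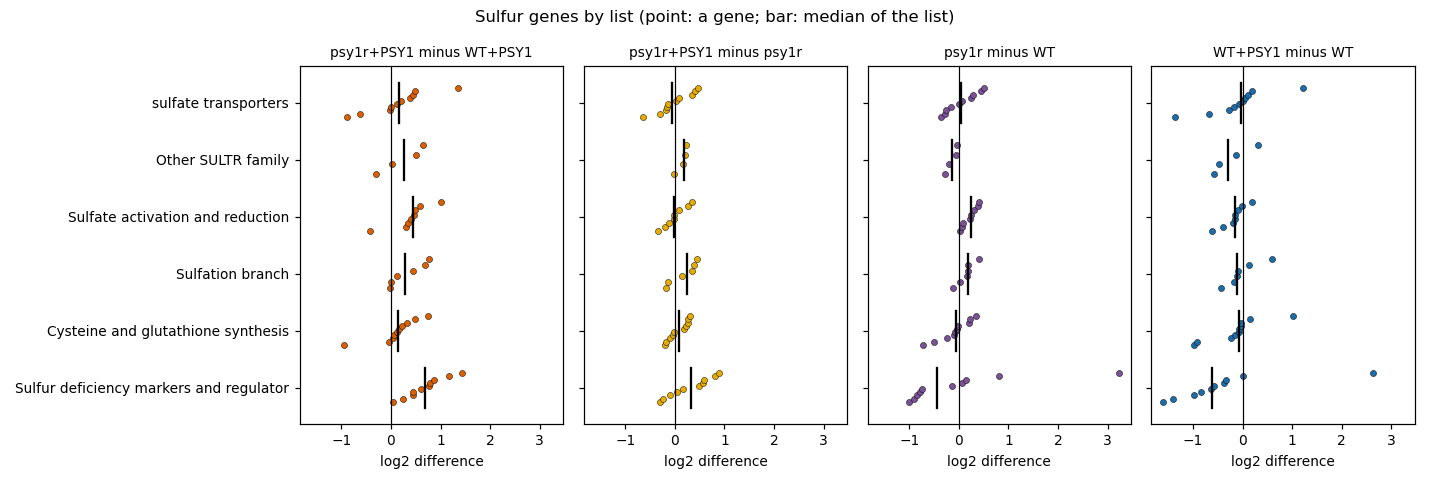
Log2 difference of the sulfate transporters and of 5 further lists of sulfur genes in the 4 comparisons, with a point per gene (brightest probe) and a bar at the median of the list. The sulfur deficiency list has its median at 0.69 in psy1r+PSY1 against WT+PSY1 and at -0.61 in WT+PSY1 against WT, and the point at 3.24 in psy1r against WT is SHM7.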

How the data were processed

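Transcript levels were measured on 11 one-color Agilent arrays of whole *Arabidopsis* seedlings, grouped by their labels. The authors deposited scanner output with background-subtracted spot intensity (Agilent Feature Extraction 10.7.3.1), not normalized between arrays, and a table of log2 values centred on each probe, which correlated at 0.9999 or more with the values used here. The methods name RMA in GeneSpring. Here the processed intensity was converted to log2 and scaled to the 75th percentile of each array, control and outlier spots were left out, and spots of a probe were averaged. A probe entered the test if 2 or more of the arrays had it well above background (36364 of 43603 did). Probes were matched to loci through RefSeq transcripts, and the brightest probe stands for a locus. Groups were compared with limma 3.58.1 in R 4.3.3 (1 fit, Benjamini-Hochberg adjustment over all tested probes), with scripts tested on simulated data. Other scalings, filters, fits and probe choices and each array left out were tried as alternatives, and the averaging of alike arrays was added after seeing the data. The number of arrays limits the precision. Replicate numbers equal slides. Of 15 same-numbered pairs of arrays, 11 had deviations correlated above 0.1 (range -0.15 to 0.50), and since this did not hold for every pair, the slide was a block only in an alternative fit. Genes named from the sulfur lists are those called, or up to 4 per list with the largest tested difference, and TPST, named for its part in making PSY1 after its values were seen. The members and lists were chosen with earlier results of these data known. The genome build of the arrays differs from the annotation, so no positions are given.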

Additional observations from a re-analysis of the deposited data

Results flagged for a closer look

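The probe of SULTR4;1 and the dimmer probe of SULTR3;1 each moved after PSY1 in opposite directions in psy1r and in WT. The arrays of the groups compared did not overlap. On the probe of SULTR4;1, both psy1r+PSY1 arrays were above all psy1r arrays and all WT+PSY1 arrays were below all WT arrays, and the PSY1 difference in psy1r exceeded that in WT by 0.73 on the log2 scale. On the dimmer probe of SULTR3;1 (AT3G51895), both psy1r+PSY1 arrays were below all psy1r arrays and all WT+PSY1 arrays were above all WT arrays, a difference between the responses of -0.56. Of all tested loci, 22.9% were higher and 24.2% lower without overlap in WT+PSY1 against WT. In psy1r+PSY1 against psy1r the shares were 7.48% and 7.23%. The share of loci that moved without overlap in opposite directions in psy1r and in WT was not computed, so whether this pattern is unusual is not known. Neither difference between the lines was tested here, because the response in wild type was known when the list was drawn up. Each group had too few arrays to test for outlying ones, though psy1r+PSY1 replicate 3 stood apart by its seed transcripts.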

How the results depend on the processing

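Of 24 alternatives, none gave a call for any tested sulfate transporter in psy1r+PSY1 against psy1r or in psy1r against WT. In psy1r+PSY1 against WT+PSY1, where 0 of the 9 tested members were called, 1 was called by unadjusted p with the 2-fold limit (AT1G78000), and leaving out an array gave 0 to 1 calls, the same gene being called without psy1r+PSY1 replicate 1. In WT+PSY1 against WT, which is a description, 1 was past both limits (AT3G51895), and 0 were past them with the replicate block, with the mean over all probes of a locus and with the alike arrays averaged, 2 were called by unadjusted p with the 2-fold limit, and leaving out an array gave 0 to 1, with 0 without WT replicate 1 or 2, any WT+PSY1 array, or psy1r replicate 1 or 2. The difference of that gene in WT+PSY1 against WT stayed between 0.79 and 1.30. With the replicate block, which changed no other call of a member, its difference was 1.22 as well. Over all tested probes the calls in psy1r+PSY1 against WT+PSY1 were 382, against 119 with the replicate block, 805 in the manner of RMA and 0 with alike arrays averaged. In psy1r against WT they were 268, and 0 to 2117 over the alternatives, in psy1r+PSY1 against psy1r 6, and 0 to 415, and in WT+PSY1 against WT 75, and 0 to 1049. Fits that leave 1 psy1r+PSY1 array assume that it varies like the other groups. Signal over background limits SULTR1;1 and the dimmer probes of AT1G78000 and AT4G02700.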
